A study of Mus musculus with 11 samples.

Results

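Expression of 9 transcription factors of islet endocrine identity was described in mouse pancreatic islets treated with azoramide. The genes are Pdx1, Nkx6-1, Nkx2-2, Neurod1, Pax6, Isl1, Mafa, Foxa2 and Rfx6. They were chosen by name among the 32285 genes of the count table. All 9 were found, and all 9 were among the 15093 genes that passed the filter on low counts. Their counts per library ran from 794 to 8589.

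Islets of littermate control mice and of mice labelled as lacking Zzef1 in beta cells were treated with DMSO or with azoramide, a compound that modulates the unfolded protein response of the endoplasmic reticulum. The 11 libraries form 4 groups: 3 of control islets with DMSO, 3 of control islets with azoramide, 2 of islets labelled knockout (βZKO-Mip) with DMSO and 3 of islets labelled knockout with azoramide. All mice, aged 16 weeks, had 4 weeks of high-fat feeding, azoramide was given at 10 µM, and both treatments lasted 24 h. At least 3 mice of a genotype went into each sample, and whether samples share mice is not labelled, so p-values measure the spread between these samples only. The labels do not name the driver of the deletion or expand "Mip". Every group had the high-fat diet and 24 h of treatment, so no group shows untreated islets.

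These factors work as a network that first specifies the endocrine pancreas and later keeps mature islet cells in their state. Several bind the control regions of each other and of the hormone genes, and loss of function of many of them impairs insulin production or causes diabetes in mice. In adult mouse islets Pdx1, Nkx6-1 and Mafa are known chiefly as factors of beta cells, Nkx2-2 is shared with some other endocrine cells, Neurod1, Pax6, Isl1 and Rfx6 are shared by most islet endocrine cells, and Foxa2 is expressed widely in endoderm.

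Library totals ran from 16832800 to 19501813 counts. On principal components of 38.2% and 11.8% of the variance, library 2 of control islets with DMSO and library 3 of the labelled knockout with azoramide lay at opposite ends of the latter, so results that rest on them are given with and without them. Scaling factors for library size were 1.04 to 1.08 in the DMSO libraries and 0.919 to 0.973 in those with azoramide. Zzef1, the targeted gene, was at 85.4 to 110 CPM (counts relative to the TMM-scaled library total) in control DMSO libraries and at 79.4 and 83.5 CPM in those labelled knockout, and at 64.3 to 68.1 and 68.7 to 77.7 CPM with azoramide. The difference between labels was -0.26 (log2) with DMSO (SE 0.09, edgeR adjusted p = 0.999) and 0.13 with azoramide (SE 0.08, edgeR adjusted p = 0.968), so every genotype statement rests on the label.

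Summed beta cell markers (6 genes) stood at 129454 to 142000 CPM with DMSO and at 140643 to 192479 CPM with azoramide. Alpha cell markers (6 genes) stood at 14687 to 16775 CPM and at 23909 to 28028 CPM. Both sums were dominated by hormone genes. No marker of any cell type list was at 0 in all libraries, so detection alone does not tell cell types apart. By level, the beta and alpha sums were the highest of all the lists, which matches the islet label. Delta cell markers (5 genes) ran from 1734 to 1982 CPM with DMSO and from 1898 to 2691 CPM with azoramide, Ppy, the marker of PP cells, from 1043 to 1764 and from 1770 to 2134 CPM, ductal markers (6 genes) from 1096 to 1398 and from 1438 to 1819 CPM, and endothelial markers (6 genes) from 301 to 313 and from 213 to 274 CPM. Acinar markers (8 genes) were found in every group, at 564 to 4871 CPM and at 970 to 5771 CPM. Macrophage markers (6 genes) summed to 39.3 to 50.7 CPM with DMSO and to 53.6 to 97.1 CPM with azoramide, and stellate markers (6 genes) to 45.2 to 52.4 and to 45.9 to 49.5 CPM. The sums of alpha, PP, ductal, endothelial and macrophage markers thus did not overlap between treatments, and their part in the results for the 9 genes was not tested. Over all single genes, 17.2% were lower in all azoramide libraries than in all DMSO libraries, and 17.5% higher. Of the 6 beta cell markers, 4 rose and 1 fell in control islets (66.7% and 16.7%). In islets labelled knockout 3 rose and 1 fell (50% and 16.7%). Of all genes 19.3% and 20% were called higher, and 19.8% lower in each genotype. Iapp, G6pc2 and Ucn3 rose and Ins1 fell in both genotypes, Ins2 rose in control islets, and Slc2a2 was not called. Of the 6 macrophage markers only Cd68 was called, higher in both genotypes (16.7%, against 19.3% and 20% of all genes). Of the ductal markers 5 were tested, and 40% rose in control islets and 20% in islets labelled knockout, against 19.3% and 20% of all genes. Krt8 rose in both genotypes, and Krt7 rose in control islets (0.28) but not in islets labelled knockout (-0.03). Krt19, Sox9 and Spp1 were not called, and Cftr was not tested. Spp1, Krt7 and Krt8 made up most of the ductal sum, while group means were 3.57 to 7.61 CPM for Krt19 and 0.74 to 1.11 CPM for Sox9. Of the 6 endothelial markers, 3 fell in each genotype (50%, against 19.8% of all genes). In bulk islets a smaller share of cells that express a gene and less RNA of that gene per cell cannot be told apart.

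All 9 genes code for protein. On GRCm38, Pdx1 lies at chr5:147269959-147275848 (plus strand), Nkx6-1 at chr5:101658139-101664996 (minus), Mafa at chr15:75745490-75748228 (minus), Nkx2-2 at chr2:147177546-147194243 (minus) and Foxa2 at chr2:148042877-148046969 (minus). Neurod1 lies at chr2:79452521-79456751 (minus), Pax6 at chr2:105668900-105697364 (plus), Isl1 at chr13:116298281-116309689 (minus) and Rfx6 at chr10:51677756-51730432 (plus). The exonic length over all annotated transcripts ran from 2158 bases in Pdx1 to 11694 bases in Pax6.

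RefSeq promoter windows of GRCm38.p6 were matched for 8 of the 9 genes, and Mafa was not matched. Sequence upstream of a RefSeq start is printed for 2 factors whose RNA was lower with azoramide in every library (Pdx1 and Nkx2-2) and for 2 whose RNA was not (Isl1 and Pax6), because several of the 9 proteins are homeodomain factors that recognise a TAAT core. The Nkx2-2 stretch precedes an internal start and lies inside the annotated span of the gene, whose 5′ end is at chr2:147194243. Other windows, among them that of Rfx6, also lie inside the span of their gene. Only bases outside annotated exons are shown, 5′ to 3′ on the gene's strand, and capitals mark each TAAT or its reverse complement ATTA.
Pdx1, chr5:147269847-147269958, plus strand: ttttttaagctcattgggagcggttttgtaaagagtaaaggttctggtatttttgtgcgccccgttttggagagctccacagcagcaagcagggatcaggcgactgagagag
Nkx2-2, chr2:147186456-147186652, minus strand: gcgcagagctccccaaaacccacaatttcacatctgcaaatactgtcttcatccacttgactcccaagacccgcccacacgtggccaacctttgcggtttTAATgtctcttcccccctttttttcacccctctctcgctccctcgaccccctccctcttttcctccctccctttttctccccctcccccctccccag
Isl1, chr13:116309690-116309938, minus strand: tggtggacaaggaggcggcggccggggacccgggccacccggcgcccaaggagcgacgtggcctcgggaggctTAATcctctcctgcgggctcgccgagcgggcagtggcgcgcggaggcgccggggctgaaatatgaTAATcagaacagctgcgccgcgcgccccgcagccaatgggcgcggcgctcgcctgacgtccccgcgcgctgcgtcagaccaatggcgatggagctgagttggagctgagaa
Pax6, chr2:105668646-105668895, plus strand: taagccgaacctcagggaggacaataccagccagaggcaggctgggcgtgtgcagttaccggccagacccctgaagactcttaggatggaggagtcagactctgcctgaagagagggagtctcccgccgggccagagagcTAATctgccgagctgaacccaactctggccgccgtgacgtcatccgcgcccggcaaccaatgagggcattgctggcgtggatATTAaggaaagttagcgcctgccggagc

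TAAT on either strand was absent from the Pdx1 stretch, occurred 1 time in that of Nkx2-2 and 2 times each in those of Isl1 and Pax6. Over the full 250 upstream bases of every window, the Nkx6-1 and Neurod1 windows held no TAAT and the Rfx6 window 3, and the 3 Foxa2 windows held 1, 0 and 2. Thus 7 of the 11 windows held at least 1 TAAT on either strand, as did 54.92% of all 32851 promoter windows of that length. The E-box CANNTG, the motif of basic helix-loop-helix factors such as Neurod1, occurred in 6 of the 11 windows of these genes, 3 times each in those of Pdx1 and Nkx2-2, against 66.22% of all windows with at least 1. It was absent from the windows of Nkx6-1 and Rfx6, from 1 of the 2 Pax6 windows and from 2 of the 3 Foxa2 windows. The forkhead motif TGTTTAC was in none of the 11 windows of these genes and in 3.166% of all windows. Each motif was counted on both strands, with matches of different motifs allowed to overlap. These matches describe letters and are not evidence of binding.

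Whether azoramide altered the factors was asked first in control islets. Nkx6-1, Mafa, Nkx2-2, Pdx1 and Foxa2 fell, none of the 9 genes rose, and Isl1, Pax6, Neurod1 and Rfx6 were not called. At an adjusted p threshold of 0.05 in edgeR's quasi-likelihood test, 39% of all genes tested were called and 19.8% were called lower. The median log2 fold change of the 9 genes was -0.23, against -0.02 over all genes tested. The same 5 genes fell in islets labelled knockout, and Isl1 rose, with 39.8% of all genes called, 19.8% lower and 20% higher. The median of the 9 genes was -0.42 there, against -0.00 over all genes. The treatments were compared within each genotype, so these comparisons share no samples. Nkx6-1, Mafa, Nkx2-2 and Pdx1 were lower in all 6 azoramide libraries than in all 5 DMSO libraries, a pattern that 17.2% of all genes tested showed in that direction and 17.5% in the other. Within control islets 24.6% of all genes were lower with azoramide without overlap of libraries and 23.8% higher, and within islets labelled knockout 31.4% were lower.

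**Figure D1:**
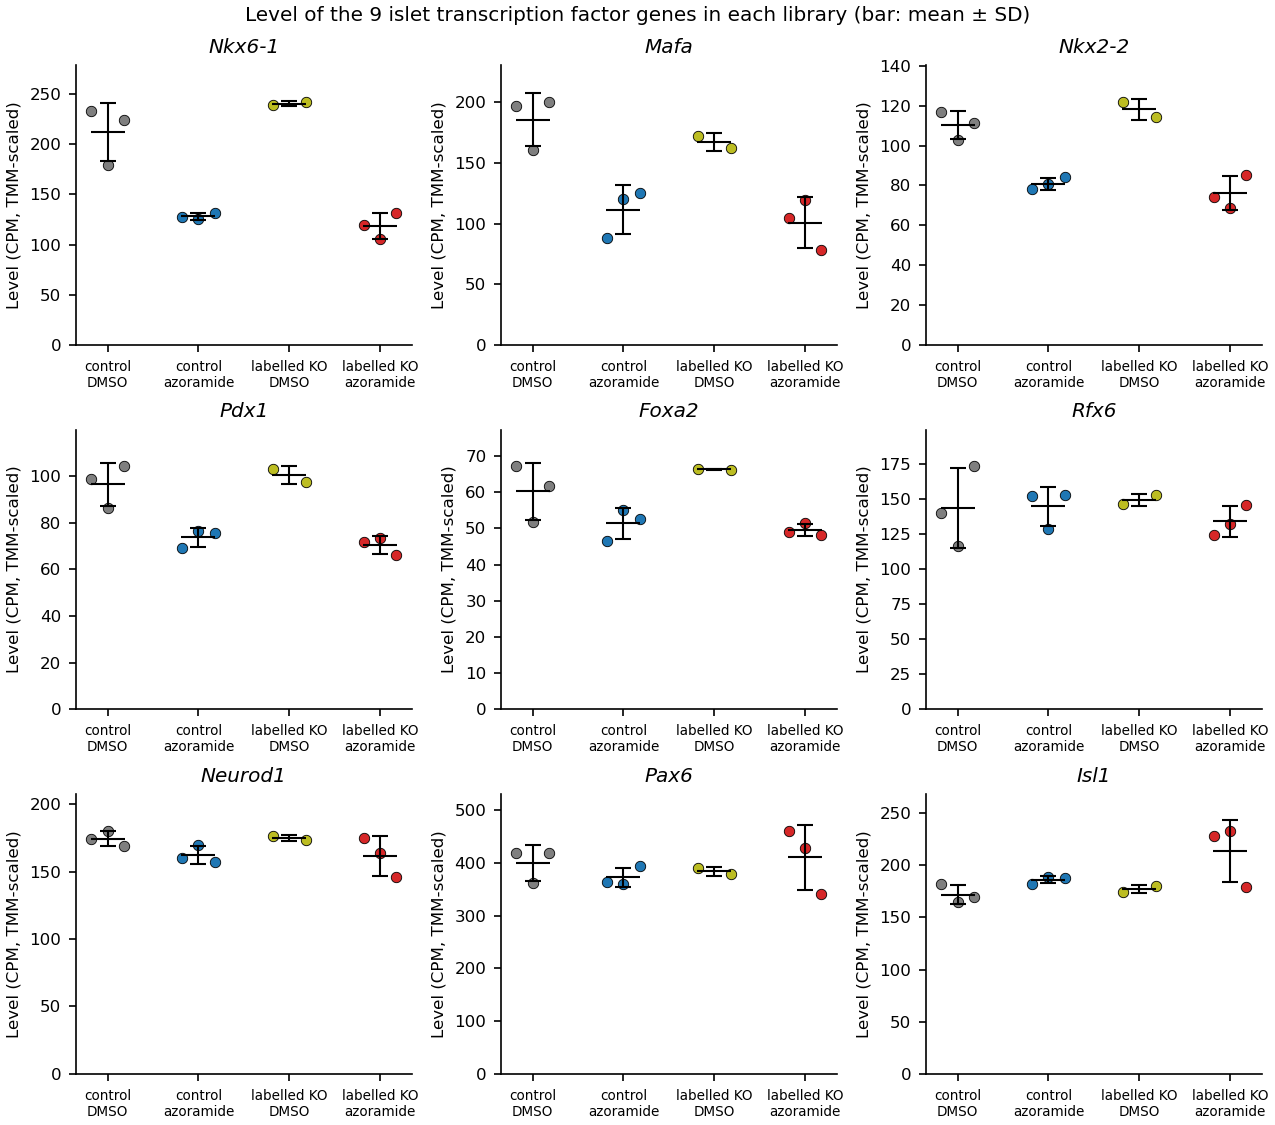
Level of each of the 9 transcription factors in every library (points, CPM after TMM scaling, axis from 0) by group, with the group mean as a bar and the SD as an error bar; groups hold 3, 3, 2 and 3 libraries. Nkx6-1, at 179 to 242 CPM with DMSO and 105 to 132 CPM with azoramide, shows the clearest separation of treatments, while the Pax6 and Neurod1 libraries overlap.

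Nkx6-1 encodes a homeodomain repressor that keeps beta cells from taking on the programme of other islet cells. Its levels in control islets were 233, 179 and 224 CPM with DMSO and 127, 125 and 132 CPM with azoramide. In islets labelled knockout they were 238 and 242 CPM with DMSO and 119, 105 and 132 CPM with azoramide. The lowest DMSO library, control library 2, stood above every azoramide library. In control islets the group mean went from 212 ± 28.9 CPM (SD, n = 3) to 128 ± 3.4 CPM (SD, n = 3), a log2 fold change of -0.73 (SE 0.09, 95% interval -0.93 to -0.53, edgeR adjusted p = 2.21e-05). It went, in islets labelled knockout, from 240 ± 2.6 CPM (SD, n = 2) to 119 ± 13.1 CPM (SD, n = 3), or -1.02 (SE 0.10, 95% interval -1.23 to -0.80, edgeR adjusted p = 2.74e-06). As linear values Nkx6-1 fell by 39.6% in control islets and fell by 50.6% in islets labelled knockout, the greatest fall of the 9 genes in the latter. The difference between these effects was -0.29 (SE 0.14, 95% interval -0.58 to 0.0035, edgeR adjusted p = 0.999), so it was not called.

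Mafa encodes a basic leucine zipper activator of insulin genes and a marker of mature beta cells. Control libraries held 196, 160 and 200 CPM with DMSO and 88.5, 121 and 126 CPM with azoramide. Labelled knockout libraries held 172 and 162 CPM with DMSO and 104, 120 and 78.5 CPM with azoramide. Treatments did not overlap in either genotype, but the azoramide libraries were spread more widely than those of Nkx6-1. Mafa fell in control islets (log2 fold change -0.74, SE 0.18, 95% interval -1.16 to -0.31, edgeR adjusted p = 0.0133) and in islets labelled knockout (-0.73, SE 0.20, 95% interval -1.19 to -0.26, edgeR adjusted p = 0.0208). As linear values it fell by 39.9% and fell by 39.6%. The call was lost in control islets without control DMSO library 3 (-0.68, edgeR adjusted p = 0.0535) and in islets labelled knockout without DMSO library 1 (-0.68, edgeR adjusted p = 0.101) or DMSO library 2 (-0.77, edgeR adjusted p = 0.0746). After correction for length and GC (an offset fitted in each library) the values were -0.41 (edgeR adjusted p = 0.225) and -0.32 (edgeR adjusted p = 0.390), so neither was called.

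Pdx1 encodes a homeodomain factor needed for pancreas formation and for insulin transcription in adult beta cells. The control islets had 98.7, 86.1 and 104 CPM with DMSO and 69.1, 76.5 and 75.5 CPM with azoramide. Those labelled knockout had 103 and 97.5 CPM with DMSO and 71.7, 73.3 and 66.1 CPM with azoramide. Every azoramide library was below every DMSO library. Pdx1 fell by 0.39 on the log2 scale in control islets (SE 0.07, edgeR adjusted p = 0.000421) and by 0.51 in islets labelled knockout (SE 0.08, edgeR adjusted p = 8.2e-05). The 95% intervals were -0.54 to -0.23 and -0.68 to -0.34.

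Nkx2-2 encodes a homeodomain factor that is required for beta cell formation and represses genes of other islet cell types. Its levels in control islets were 117, 103 and 111 CPM with DMSO and 78.1, 80.5 and 84.1 CPM with azoramide. In islets labelled knockout they were 122 and 114 CPM with DMSO and 74.0, 68.7 and 85.5 CPM with azoramide. Treatments again did not overlap. Nkx2-2 fell by 0.45 on the log2 scale in control islets (SE 0.07, 95% interval -0.60 to -0.29, edgeR adjusted p = 0.000153) and by 0.64 in islets labelled knockout (SE 0.08, 95% interval -0.81 to -0.46, edgeR adjusted p = 1.4e-05). Nkx6-1, Pdx1 and Nkx2-2 were called lower in both genotypes under each of the 20 alternative ways of processing.

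Foxa2 encodes a forkhead factor that opens chromatin in endoderm and acts upstream of Pdx1. Control libraries held 67.2, 51.7 and 61.8 CPM with DMSO and 46.6, 55.0 and 52.6 CPM with azoramide. Labelled knockout libraries held 66.4 and 66.2 CPM with DMSO and 49.1, 51.5 and 48.2 CPM with azoramide. Treatments did not overlap in islets labelled knockout, while in control islets DMSO library 2 lay among the azoramide libraries. Foxa2 fell in islets labelled knockout (-0.42, SE 0.10, 95% interval -0.62 to -0.22, edgeR adjusted p = 0.00205). It fell only just past the threshold in control islets (-0.23, SE 0.09, 95% interval -0.41 to -0.04, edgeR adjusted p = 0.0466). That call was lost with DESeq2 size factors, with the DESeq2 test, with only the groups compared and without any one of 8 of the 11 libraries, namely control DMSO library 1 or 3, control azoramide library 1 or 3, labelled knockout DMSO library 1 or 2, and labelled knockout azoramide library 1 or 2. The values without one of these 8 ran from -0.24 to -0.14. Without both libraries that stood apart, Foxa2 in control islets was called at -0.33 (SE 0.07, edgeR adjusted p = 0.000675).

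**Figure D2:**
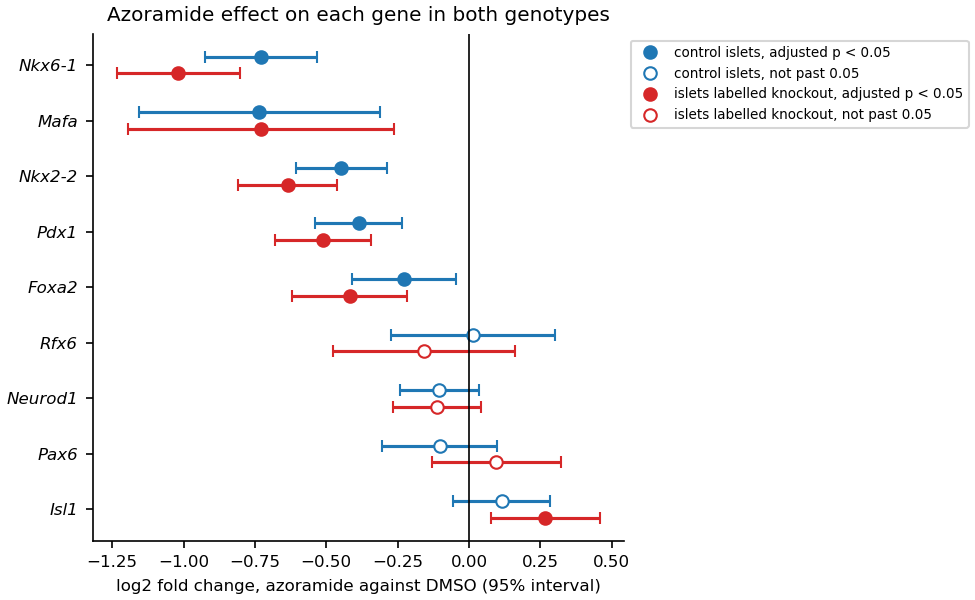
Log2 fold change of each gene for azoramide against DMSO in control islets and in islets labelled knockout, with 95% intervals as bars and filled points where the edgeR adjusted p was under 0.05. Nkx6-1 (-0.73 and -1.02) and Mafa (-0.74 and -0.73) lie lowest, and Isl1 (0.11 and 0.27) highest.

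Isl1 encodes a LIM-homeodomain factor of all islet endocrine cells that acts on insulin, glucagon and somatostatin genes. The control islets had 181.5, 164 and 170 CPM with DMSO and 182.3, 188 and 187 CPM with azoramide. Those labelled knockout had 175 and 180 CPM with DMSO and 228, 233 and 179 CPM with azoramide. Azoramide library 3 of the labelled knockout lay within the range of the DMSO libraries, so treatments overlapped there, and in control islets they were adjacent without overlap. Isl1 differed by 0.11 in control islets (SE 0.08, edgeR adjusted p = 0.288) and rose by 0.27 in islets labelled knockout (SE 0.09, 95% interval 0.08 to 0.46, edgeR adjusted p = 0.0257). The call was lost without labelled knockout azoramide library 1 (0.21), azoramide library 2 (0.20), DMSO library 1 (0.25) or DMSO library 2 (0.29), with edgeR adjusted p from 0.0942 to 0.146. It was also lost with plain library totals (0.11, edgeR adjusted p = 0.386) and with only the groups compared (0.27, edgeR adjusted p = 0.0862). Without both libraries that stood apart, the value in islets labelled knockout was 0.38 (SE 0.06, edgeR adjusted p = 8.4e-06).

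Pax6 encodes a paired-domain and homeodomain factor of all islet endocrine cells. Its levels in control islets were 418, 361 and 419 CPM with DMSO and 364, 359 and 393 CPM with azoramide. In islets labelled knockout they were 390 and 378 CPM with DMSO and 461, 429 and 342 CPM with azoramide. The 2 highest and the lowest of these libraries all belonged to the labelled knockout with azoramide. Pax6 differed by -0.10 in control islets (SE 0.09, 95% interval -0.30 to 0.10, edgeR adjusted p = 0.428) and by 0.10 in islets labelled knockout (SE 0.10, 95% interval -0.13 to 0.32, edgeR adjusted p = 0.512). With plain library totals Pax6 was called lower in control islets (-0.27, edgeR adjusted p = 0.0489). Without both libraries that stood apart, both values were called, at -0.17 (SE 0.05, edgeR adjusted p = 0.0133) and 0.21 (SE 0.06, edgeR adjusted p = 0.00471), and the difference between them was 0.38 (SE 0.08, edgeR adjusted p = 0.0662).

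Neurod1 encodes a basic helix-loop-helix activator of the insulin genes. Control libraries held 174, 180 and 169 CPM with DMSO and 160, 170 and 157 CPM with azoramide. Labelled knockout libraries held 176 and 173 CPM with DMSO and 175, 164 and 146 CPM with azoramide. Treatments overlapped in both genotypes. Neurod1 differed by -0.10 (SE 0.07, 95% interval -0.24 to 0.04, edgeR adjusted p = 0.238) and by -0.11 (SE 0.07, 95% interval -0.27 to 0.04, edgeR adjusted p = 0.245). After correction for length and GC Neurod1 was called lower, at -0.44 in control islets (edgeR adjusted p = 6.2e-05) and -0.49 in islets labelled knockout (edgeR adjusted p = 6.3e-05).

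Rfx6 encodes a winged-helix factor that is required for endocrine development and for insulin secretion in the adult. The control islets had 140, 116 and 173 CPM with DMSO and 152, 129 and 153 CPM with azoramide. Those labelled knockout had 146 and 152 CPM with DMSO and 124, 132 and 146 CPM with azoramide. Control DMSO libraries 2 and 3 held the lowest and the highest value, so the spread was wide. Rfx6 differed by 0.01 (SE 0.13, 95% interval -0.27 to 0.30, edgeR adjusted p = 0.942) in control islets and by -0.16 (SE 0.14, 95% interval -0.48 to 0.16, edgeR adjusted p = 0.428) in islets labelled knockout. After correction for length and GC the latter was -0.36 and not called, and with the replicate block added it was called lower, at -0.45 (edgeR adjusted p = 0.00251).

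Ratios of counts within a library do not depend on how libraries are scaled. The ratio of Nkx6-1 to Isl1 counts was 1.09 to 1.37 in the 5 DMSO libraries and 0.452 to 0.735 in the 6 azoramide libraries. The ratio of Mafa to Neurod1 counts was 0.890 to 1.19 with DMSO and 0.538 to 0.799 with azoramide. The ratio of Nkx6-1 to Nkx2-2 counts was 1.75 to 2.12 with DMSO and 1.53 to 1.63 with azoramide, so Nkx6-1 was lower even relative to a factor that itself fell. None of these 3 ratios overlapped between treatments. The share of all gene pairs that separate in this way was not computed. Of all single genes, 17.2% were lower in all azoramide libraries than in all DMSO libraries, and 17.5% were higher. Both numerators, Nkx6-1 and Mafa, were already called lower above, and a count ratio does not remove differences tied to GC content.

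The order of the factors was compared as CPM per kilobase of exonic length. In control islets with DMSO, Mafa (67.8 ± 8.1), Nkx6-1 (67.6 ± 9.2) and Neurod1 (63.9 ± 2.1) stood highest (SD, n = 3), with overlapping libraries. Pdx1 (44.6 ± 4.3) and Isl1 (43.4 ± 2.2) followed and overlapped each other, then Nkx2-2 (38.4 ± 2.5), Rfx6 (35.7 ± 7.1) and Pax6 (34.2 ± 2.8), whose neighbours in the order also overlapped. Foxa2 was lowest at 25.4 ± 3.3 CPM per kilobase. The length of Pax6 counts the exons of all its isoforms, which lowers its value on this scale. With azoramide, Neurod1 stood highest in control islets (59.5 ± 2.4) and Isl1 next (47.0 ± 0.8), and neither overlapped its neighbours. Nkx6-1 (40.8 ± 1.1), Mafa (40.7 ± 7.3), Rfx6 (36.0 ± 3.4), Pdx1 (34.2 ± 1.8) and Pax6 (31.8 ± 1.6) formed an overlapping run below them, followed by Nkx2-2 (28.1 ± 1.0) and Foxa2 (21.7 ± 1.8) without overlap.

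In islets labelled knockout with DMSO the order on this scale was Nkx6-1 (76.6 ± 0.8), Neurod1 (64.0 ± 0.9), Mafa (61.0 ± 2.6), Pdx1 (46.5 ± 1.8), Isl1 (44.8 ± 0.9), Nkx2-2 (41.1 ± 1.9), Rfx6 (37.2 ± 1.1), Pax6 (32.8 ± 0.7) and Foxa2 (28.0 ± 0.04), each as CPM per kilobase (SD, n = 2). Of these neighbours, Pdx1 and Isl1 overlapped. With azoramide Neurod1 (59.2 ± 5.4) and Isl1 (53.9 ± 7.5) led and overlapped, and Nkx6-1 (37.8 ± 4.2), Mafa (36.8 ± 7.6), Pax6 (35.1 ± 5.3), Rfx6 (33.4 ± 2.8) and Pdx1 (32.6 ± 1.8) overlapped in a run below them. Nkx2-2 (26.5 ± 3.0) and Foxa2 (20.9 ± 0.7) again stood last.

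The genotype comparison asks whether deletion of Zzef1 in beta cells alters these factors. None of the 9 genes was called with DMSO, with azoramide or in the interaction in edgeR's test, where 0% of the 15093 genes were called in each. With DMSO, 0 of the 9 and 3.52% of all genes (531) had an unadjusted p under 0.05, and with azoramide 1 of the 9, Isl1, and 5% of all genes (754). In the interaction the counts were 0 of the 9 and 3.73% of all genes (563). The DESeq2 test called 0 of the 9 genes in each of the 3.

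With DMSO the widest differences between labelled knockout and control were those of Nkx6-1 (0.18, SE 0.10, 95% interval -0.04 to 0.40), Mafa (-0.15, SE 0.20, 95% interval -0.62 to 0.32) and Foxa2 (0.14, SE 0.10, 95% interval -0.06 to 0.34), each with an edgeR adjusted p of 0.999. The libraries of Nkx6-1 did not overlap between labels with DMSO, which held for 9.86% of all genes in that direction. The other 6 ran from -0.06 for Pax6 to 0.10 for Nkx2-2. With azoramide Isl1 differed by 0.20 (SE 0.08, 95% interval 0.03 to 0.37, edgeR adjusted p = 0.958), Pax6 by 0.14 and the other 7 by -0.14 for Mafa to -0.01 for Neurod1. All 9 genes had libraries that overlapped between labels with azoramide. The comparisons within a label and those between labels share samples, so their values are set side by side only. In the interaction, Nkx6-1 (-0.29) and Pax6 (0.20) had the widest values.

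Without both libraries that stood apart, Isl1 and Pax6 were called higher in islets labelled knockout than in control islets with azoramide, at 0.31 (SE 0.05, edgeR adjusted p = 0.00543) and 0.26 (SE 0.05, edgeR adjusted p = 0.0238). The number of all genes called was then 84. On principal component 2, library 1 of control islets with azoramide (18.5) lay on the side of the labelled knockout library left out (24.7), yet it was kept. The libraries to leave out were chosen from these data and differ between labels, so these calls cannot be told apart from that choice. The labelled knockout library left out was the lowest of its group for Isl1 (179 CPM against 228 and 233) and for Pax6 (342 CPM against 461 and 429).

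GC content and exonic length both moved with the azoramide effect over all genes, and for the 5 factors that fell they ran in opposite directions. When genes were split into 5 equal classes by GC content, in the class of highest GC (55.6% to 75.5%) the median log2 fold change was -0.22 in control islets and -0.26 in islets labelled knockout, against 0.18 and 0.25 in the class of lowest GC. The 5 factors that fell in both genotypes, Mafa (65.0% GC), Nkx6-1 (59.0%), Foxa2 (58.4%), Nkx2-2 (58.0%) and Pdx1 (55.7%), were the 5 that belong to that class. Pax6 (48.7%), Isl1 (46.9%), Rfx6 (44.6%) and Neurod1 (43.6%) did not. Pdx1 lay only just inside the class of highest GC, at 55.65% against a lower edge of 55.61%. By exonic length the median was 0.28 in control islets and 0.29 in islets labelled knockout in the shortest of 5 classes, which holds Pdx1, and 0.07 and 0.09 in the class above it, which holds Nkx6-1, Nkx2-2, Mafa, Foxa2 and Neurod1. In the longest class, which holds Pax6, it was -0.20 and -0.16. The 5 factors that fell thus belong to length classes whose medians were above 0. After correction for length and GC the values in control islets were -0.54 for Nkx6-1, -0.43 for Pdx1 and -0.32 for Nkx2-2, and in islets labelled knockout -0.76, -0.51 and -0.44, all called. Foxa2 was at -0.16 (edgeR adjusted p = 0.208), not called, in control islets and at -0.28, still called, in islets labelled knockout, and Isl1 at 0.17 (edgeR adjusted p = 0.155) in the latter was no longer called. Genes called then numbered 3544 and 3760, against 5893 and 6006.

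**Figure D3:**
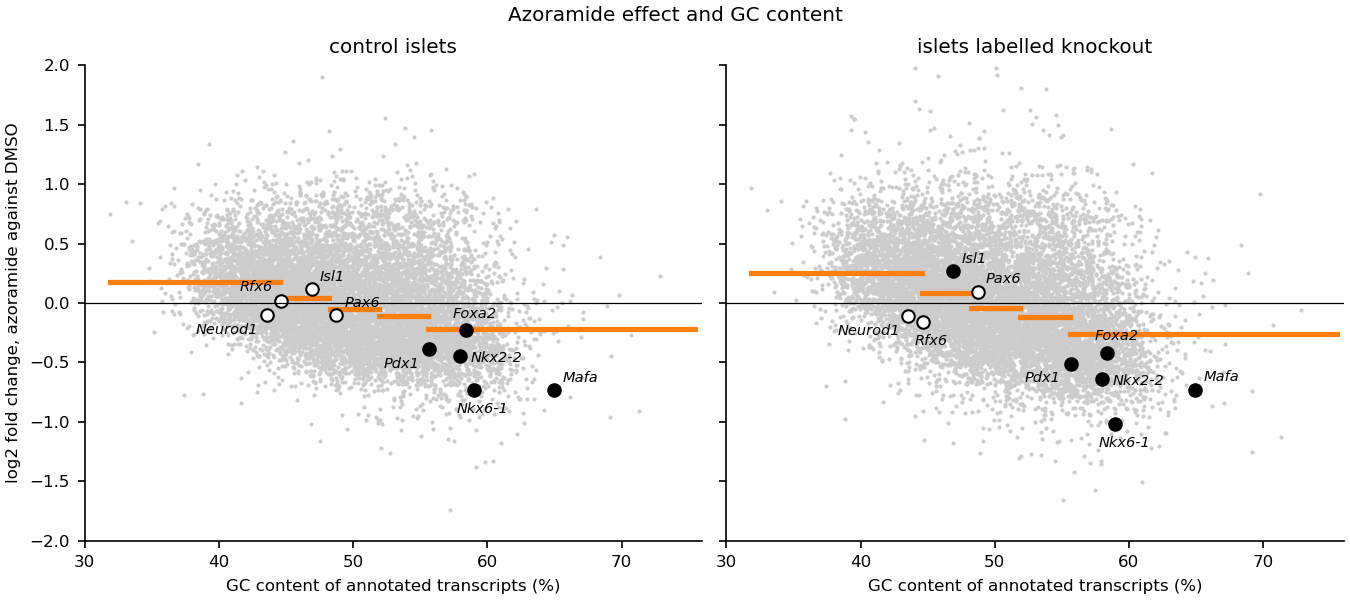
Log2 fold change for azoramide against DMSO over the GC content of annotated transcripts in both genotypes, with the 9 factors as large circles (filled where the edgeR adjusted p was under 0.05), 9932 genes of mean log2 CPM of at least 3 as grey points and the median of each of 5 GC classes of all tested genes as an orange bar. The 5 factors that fell lie in the class of highest GC, whose bars are at -0.22 and -0.26; 1 gene and 10 genes lie beyond the vertical axis.

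**Figure D4:**
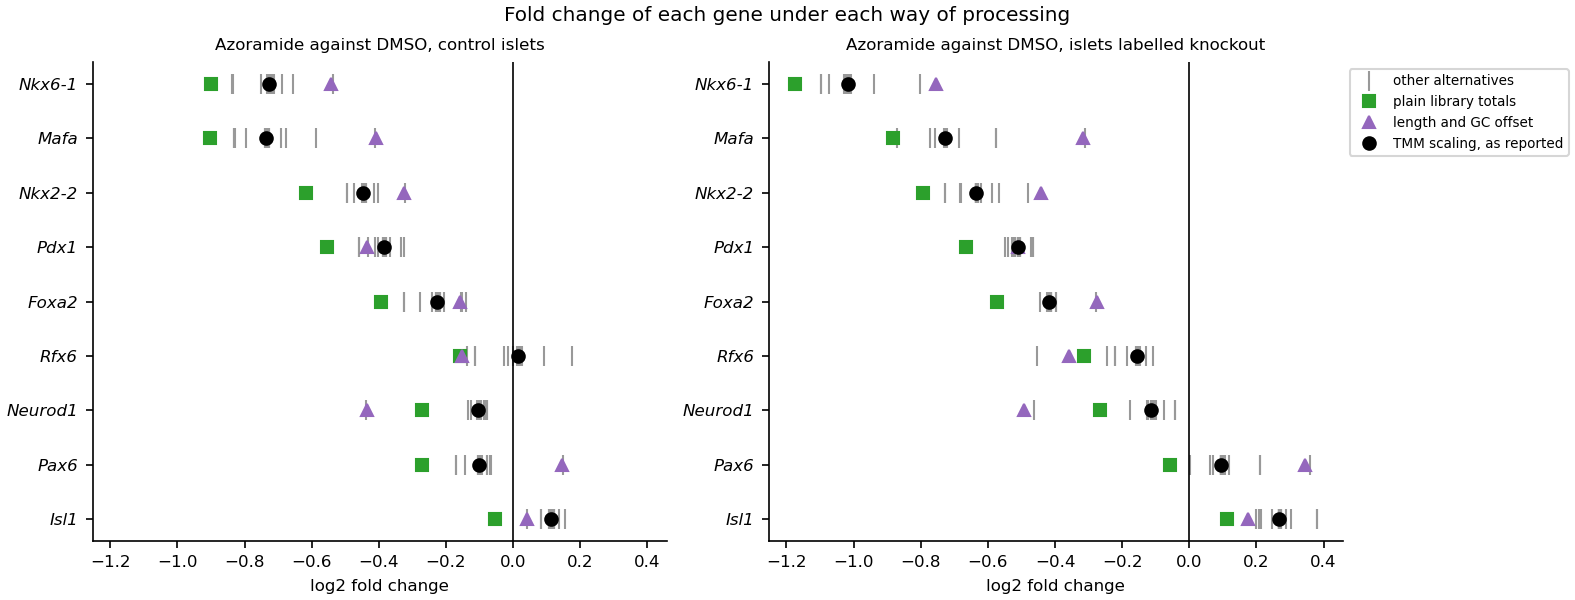
Log2 fold change of each of the 9 factors under the reported processing (black), plain library totals (green), the length and GC offset (purple) and the other alternatives (grey ticks), in both genotypes. Nkx6-1 stays between -1.18 and -0.54 over both panels, while Neurod1 with the offset lies at -0.44 and -0.49, below its reported -0.10 and -0.11.

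Genes that overlap a factor were examined because the strand setting of the counting is not given in the sources used here. Plut, annotated antisense to Pdx1, shares no exonic base with it and had 88 to 122 counts, and Pax6os1, antisense to Pax6, also shares none and had 192 to 297 counts. Nkx2-2os shares 278 bases (9.67% of the exonic length of Nkx2-2) but had 3 to 14 counts, and 6430503K07Rik, also antisense to Nkx2-2, had 2 to 21. Cerkl, on the strand of Neurod1, shares 201 bases (7.365% of its exonic length) and had 432 to 692 counts. Reads in the shared bases cannot be assigned from these counts. Pax6os1 rose in control islets (0.49, SE 0.13, edgeR adjusted p = 0.00698, 0.15 after correction for length and GC and 0.32 with plain library totals, not called in either), where Pax6 differed by -0.10. Pax6os1 differed by 0.20 in islets labelled knockout (edgeR adjusted p = 0.325).

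Other factors of islet development and identity were taken from lists of related genes, whose counts are read against the shares of all genes called, 39% in control islets (19.3% higher, 19.8% lower) and 39.8% in islets labelled knockout (20% higher, 19.8% lower). Of 18 progenitor and differentiation factors, 16 were tested. In control islets 2 rose and 8 fell (median -0.31), and in islets labelled knockout 1 rose and 6 fell (median -0.27). The shares called in either direction were 62.5% and 43.8%, the latter near that of all genes. The shares that fell were 50% and 37.5%, against 19.8% of all genes. After correction for length and GC 6 of the 16 were called in control islets, 2 higher and 4 lower. All genes called in control islets after that correction numbered 3544 of 15084. Insm1, a zinc-finger factor of endocrine differentiation, fell in control islets (248 ± 6.3 CPM with DMSO, 180 ± 9.6 CPM with azoramide, SD, n = 3, log2 fold change -0.46, edgeR adjusted p = 0.000148) and in islets labelled knockout (-0.63, edgeR adjusted p = 1.8e-05). Glis3, a zinc-finger factor linked to neonatal diabetes, fell by 0.51 and by 0.59, Runx1t1 by 0.53 and by 0.77, and Prox1, a homeodomain factor of pancreas growth, by 0.33 in both. Corrected for length and GC, Prox1 was at -0.15 in both and not called (edgeR adjusted p = 0.0966 and 0.137), and Glis3 in control islets was at -0.23 and not called (edgeR adjusted p = 0.0581). St18, a zinc-finger relative of Myt1, rose by 0.29 in control islets and by 0.55 in islets labelled knockout. The former call of St18 was lost without control DMSO library 1 (0.25), control DMSO library 3 (0.25) or control azoramide library 3 (0.28), with plain library totals (0.12) and after correction for length and GC (0.22). Pax4, a factor of the beta cell precursor, was at 0 in all 11 libraries.

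Of 10 factors of alpha, delta and PP cells, 2 rose and 3 fell in control islets (median 0.25), and 3 rose and 1 fell in islets labelled knockout (median 0.19). The 20% that rose in control islets and the 40% called in islets labelled knockout were near the shares of all genes. In control islets 30% fell, and in islets labelled knockout 30% rose and 10% fell. With plain library totals none rose and 3 fell in control islets. Without control DMSO library 3 or control azoramide library 2, 1 rose and 2 fell there. Of the 10, 1 was called in islets labelled knockout, lower, without DMSO library 1 or azoramide library 2, and 2 were called without DMSO library 2 or azoramide library 1. Irx1, an Iroquois homeodomain factor of alpha cells, rose by 0.51 and by 0.55, and Irx2 rose by 0.57 in islets labelled knockout and differed by 0.23 in control islets. The Irx1 call was lost in control islets without control DMSO library 3 (0.35) or control azoramide library 2 (0.43), and in islets labelled knockout without DMSO library 1 (0.52) or 2 (0.59) or azoramide library 2 (0.48), and in both with plain library totals (0.35 and 0.40). The Irx2 call was lost without any one of labelled knockout DMSO library 1 (0.62), DMSO library 2 (0.51), azoramide library 1 (0.42) or azoramide library 2 (0.47), with plain library totals (0.41) and with only the groups compared (0.57, edgeR adjusted p = 0.115). Without both libraries that stood apart Irx2 was called in control islets (0.29, edgeR adjusted p = 0.0423). Lhx1, a LIM-homeodomain factor, fell by 0.53 and by 0.87, the former not called without control azoramide library 2 (-0.46) or after correction for length and GC (-0.40). Alpha cell marker sums were higher with azoramide, as given above, and their part in these values was not tested.

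Of 10 hepatocyte nuclear factors and relatives of Foxa2, 8 were tested, and 3 fell and none rose in each genotype (medians -0.26 and -0.33). The share called, 37.5%, was near that of all genes in either direction. All of these calls were lower, and 19.8% of all genes were called lower in each genotype. With the label knockout, 5 fell with plain library totals, and 4 fell and 1 rose without control DMSO library 2. Without both libraries that stood apart 4 fell and 1 rose in control islets. Foxo1, a forkhead factor of the insulin signalling pathway, fell by 0.56 in control islets and by 0.50 in islets labelled knockout. Hnf4a differed by -0.17 and by -0.20 (edgeR adjusted p = 0.222 and 0.197). With plain library totals it was called lower in both, at -0.34 (edgeR adjusted p = 0.0226) and -0.35 (edgeR adjusted p = 0.0302), and it was called in control islets without both libraries that stood apart (-0.26, edgeR adjusted p = 0.0431).

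All 24 partners and cofactors of the factors were tested. In control islets 2 rose and 18 fell (median -0.39), and in islets labelled knockout 1 rose and 19 fell (median -0.49). The shares that fell were 75% and 79.2%, against 19.8% of all genes in each genotype. Ep300, a histone acetyltransferase, fell by 0.48 and by 0.56, Ncoa6, a coactivator, by 0.54 and by 0.65, Paxip1, a subunit of histone methyltransferase complexes, by 0.67 and by 0.83, and Chd4, the remodeller of the NuRD complex, by 0.45 and by 0.59. Corrected for length and GC, 8 of the 24 were called in each genotype, against 20 and 20. They were 2 higher and 6 lower in control islets, and 1 higher and 7 lower in islets labelled knockout. All genes called then numbered 3544 and 3760 of 15084.

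Of 28 listed target genes of beta cells, 27 were tested. In control islets 5 rose and 13 fell (median -0.32), and in islets labelled knockout 4 rose and 12 fell (median -0.32). The shares that fell were 48.1% and 44.4%, against 19.8% of all genes, and those that rose 18.5% and 14.8%, against 19.3% and 20%. Corrected for length and GC, 10 were called in control islets, 3 higher and 7 lower, while 3544 of all 15084 genes were called. Syt13, a synaptotagmin, fell by 0.41 and by 0.55, Abcc8, the sulfonylurea receptor subunit of the ATP-sensitive potassium channel, by 0.44 and by 0.62, and Cacna1d, an L-type calcium channel subunit, by 0.49 and by 0.48. Pcx, the pyruvate carboxylase, fell by 0.53 and by 0.75, and Vdr, the vitamin D receptor, by 0.51 and by 0.50. Iapp, the gene of islet amyloid polypeptide, rose by 0.77 and by 0.75. Corrected for length and GC, Iapp was at 0.12 and 0.02 and Abcc8 at -0.05 and -0.17, none of them called. The 2 insulin genes, named after their values were seen, did not move together: Ins1 fell by 0.46 in control islets (edgeR adjusted p = 0.000525) and by 0.50 in islets labelled knockout (edgeR adjusted p = 0.000529), while Ins2 rose by 0.42 (edgeR adjusted p = 0.0241) and differed by 0.26 (edgeR adjusted p = 0.192). The call of Ins2 was lost without any one of control DMSO libraries 1, 2 and 3 and control azoramide libraries 1 and 3, with values of 0.34 to 0.425. It was also lost with plain library totals (0.25, edgeR adjusted p = 0.105), after correction for length and GC (0.28, edgeR adjusted p = 0.205) and without the filter on low counts (0.43, edgeR adjusted p = 0.0809).

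**Figure D5:**
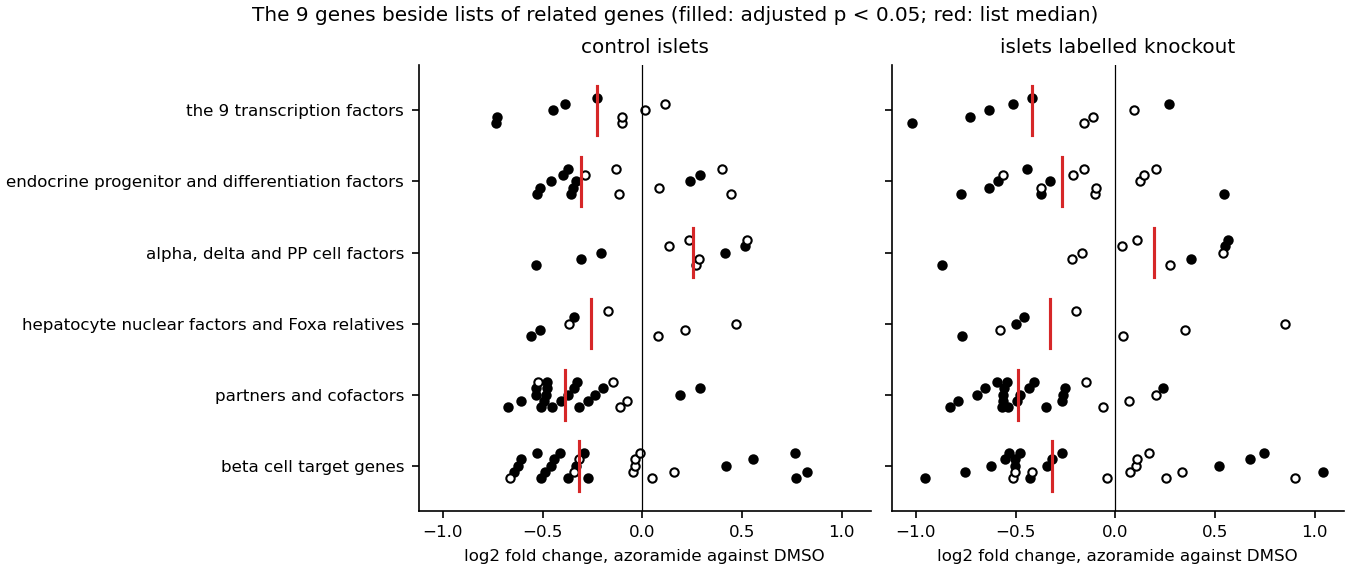
Log2 fold change for azoramide against DMSO of the 9 factors and of each tested gene in 5 lists of related genes, in control islets and in islets labelled knockout (filled points: edgeR adjusted p under 0.05; red bars: list medians). Partners and cofactors have the lowest medians (-0.39 and -0.49) of the 5 lists, and factors of alpha, delta and PP cells the only medians above 0 (0.25 and 0.19).

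For each factor, the genes whose log2 CPM followed it most closely over the 11 libraries were found by Pearson r. Only tested genes with an established symbol were ranked and counted, so Gm numbers, Rik clones, Mir genes and Ensembl identifiers were left out. Since treatment separates the libraries, a high r over them is shared by many genes, and r at or above 0.9 was reached by 1348 genes for Nkx6-1, 1229 for Nkx2-2, 687 for Pdx1, 107 for Foxa2, 76 for Mafa, 12 for Isl1, 9 for Rfx6, 3 for Neurod1 and 0 for Pax6. The closest were Pfkm (r = 0.993) and Pde8a (r = 0.992) for Nkx6-1, Nkx6-1 itself (r = 0.987) and Stat5b (r = 0.986) for Nkx2-2, and Spop (r = 0.988) and Map3k4 (r = 0.987) for Pdx1. Rhobtb3 (r = 0.971) and Itga6 (r = 0.967) were closest to Mafa, and Cdc42ep4 (r = 0.965) was among the closest to Foxa2. For the factors less tied to treatment they were Phldb2 (r = 0.930) and Jmjd1c (r = 0.928) for Isl1, Hbp1 (r = 0.963) and Zdhhc2 (r = 0.919) for Rfx6, Sult4a1 (r = 0.930) and Snap91 (r = 0.902) for Neurod1, and Tbc1d1 (r = 0.886) and Mpeg1 (r = 0.877) for Pax6. Spop, which encodes an adaptor of ubiquitin ligase known to bind Pdx1 protein, fell by 0.24 in control islets and by 0.26 in islets labelled knockout, the latter not called without DMSO library 1 (-0.24).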

How the data were processed

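RNA was sequenced from 11 islet samples on the DNBSEQ-T7 platform, per the labels. The authors deposited raw counts per gene for 32285 genes. STAR 2.7.2a, the build mm10 and DESeq2 (no role given) are named per the submitters' processing notes. What counted the reads, with which annotation and strand rule, is not given in the sources used here. The unit was checked from the values, and 16832800 to 19501813 counts per library leave little counting error for these genes. Coordinates (1-based), exonic length and GC content came from GENCODE M21 of GRCm38, which matched 32158 identifiers. Promoters came from RefSeq.

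Counts were analysed in R 4.3.3 with edgeR 4.0.16 (quasi-likelihood test, robust, TMM scaling, low counts filtered by group, 15093 genes left), all 11 libraries in 1 fit of 4 groups. Benjamini-Hochberg adjustment ran over all genes tested, and calls use an adjusted p of 0.05. Groups and replicate numbers came from the sample titles. The steps were tested on simulated data. Alternatives were DESeq2 1.42.0 size factors and its Wald test, plain totals, no filter, only the groups compared, a length and GC offset (a spline in each library), a replicate block, each library left out, and both libraries that stood apart left out. Whether same-numbered libraries are paired could not be decided from their deviations, so the block is an alternative only.

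The 9 genes and the lists of related genes were chosen with earlier results of these data known. Named by rule were all 9 factors, up to 4 genes per list with the smallest p in each azoramide comparison, overlapping genes and Zzef1. The rule also named the 2 genes most like each factor among tested genes with an established symbol (Pearson r of log2 CPM with a pseudocount of 0.5). The text adds Pax4 and the insulin genes, chosen after their values were seen. Some genes that the rule names are not reported here.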

Additional observations from a re-analysis of the deposited data

How the results depend on the processing

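Of the 891 values of the 9 factors recomputed over the alternatives and all 5 comparisons, 805 kept their direction and side of the threshold. The 891 include the label comparisons and the interaction, where the lowest edgeR adjusted p was 0.958, so few could change side. In the azoramide comparisons Foxa2 and Rfx6 in control islets kept both in 6 and 12 of 20 alternatives, and Isl1 in islets labelled knockout in 12. Nkx6-1, Nkx2-2 and Pdx1 kept both in 20 of 20 in each genotype. Leaving out each library in turn, 3 to 5 of the 9 were called in control islets, 3 without control DMSO library 3. With all libraries, 5 of the 9 and 39% of all genes were called there. Plain library totals moved the all-gene median by -0.17 in control islets and -0.16 in islets labelled knockout, and the share of higher calls was 24.8% and 29.1%, against 49.3% and 50.2%. With plain totals 7 of the 9 were called in control islets, with Pax6 and Neurod1 (both -0.27) added, and 6 in islets labelled knockout, with Neurod1 (-0.27) added and Isl1 lost. All genes called with plain totals numbered 6571 (4943 lower) and 6408 (4542 lower) of 15093. Relative to the all-gene median there, Neurod1 lay at -0.08 and -0.11 and Pax6 in control islets at -0.08. After correction for length and GC 60.2% and 58.2% of calls were higher, and genes called numbered 3544 and 3760. The cause was not tested.

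Of all genes, those called between labels with DMSO numbered 3 in the DESeq2 test, 2 without the filter, 2 without both libraries that stood apart and 0 to 3 with each library left out. With azoramide they numbered 2 in the DESeq2 test, 84 without both libraries, with 2 of the 9 factors among them, and 0 to 3. In the interaction they numbered 6 without both libraries and 0 to 1.

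Replicate numbers were shared between groups, and the 15 same-number pairs had correlations of deviations from -0.14 to 0.17. The pairs within a genotype, which alone could share mice, ran from -0.14 to 0.11. With groups of 2 or 3 libraries these values cannot decide whether samples are paired. Same-numbered libraries of a genotype share a stem in their names, whose meaning is not labelled. The replicate block joins equal numbers across genotypes, so it is not a test of pairing within a genotype. With the replicate block 4 and 5 of the 9 factors were called with azoramide in control islets and islets labelled knockout, where Foxa2 (-0.23, edgeR adjusted p = 0.0659) and Mafa (-0.73, edgeR adjusted p = 0.0632) respectively were not called. The block called 5839 and 6047 genes, 1 gene between labels with DMSO, also with the offset, and 3608 genes in control islets with the offset. With block and offset Foxa2 in islets labelled knockout was not called (-0.28, edgeR adjusted p = 0.0677), nor was Insm1 in control islets (-0.18, edgeR adjusted p = 0.0514).

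Most values that changed sign were near 0. In control islets with azoramide, Isl1 was -0.054 and Rfx6 -0.16 with plain totals, Pax6 was 0.15, Rfx6 -0.15 and Hnf4a 0.0021 with the offset, and Pax6 0.15, Rfx6 -0.14 and Hnf4a 0.0033 with block and offset. Rfx6 ran from -0.11 to 0.18 with each library left out and was -0.11 without both. In islets labelled knockout Pax6 was -0.059 with plain totals, Hnf4a 0.0052 with the offset, and Iapp -0.015 with block and offset. Pax6os1 in islets labelled knockout was -0.16 with the offset and -0.24 with the block added.

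Between labels with DMSO, Neurod1 was -0.0046 with DESeq2 size factors and in the DESeq2 test, -0.00094 without the filter, -0.036 with the block and -0.020 to 0.027 with each library left out. Pdx1 ran from -0.017 to 0.12 and Rfx6 from -0.067 to 0.22, and without both libraries they were -0.017 and -0.067. With azoramide, Neurod1 was 0.036 with plain totals, -0.069 to 0.062 with each library left out and 0.062 without both, Foxa2 ran from -0.13 to 2.44e-05, and Mafa ran from -0.30 to 0.0068 and was 0.0064 without both. In the interaction, Neurod1 was 0.0028 with plain totals, 0.027 with the block, -0.070 to 0.059 with each library left out and 0.035 without both, and Mafa ran from -0.14 to 0.16.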
